A study of Mus musculus with 6 samples.

Results

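Neurog1, Neurog2, Neurog3, Neurod1, Neurod4 and Insm1 were followed on 6 expression arrays of mouse cervical spinal cord at embryonic day 11.5, with dorsal cord and floor plate excluded from the tissue. These 6 genes were chosen as proneural factors and genes of newly born neurons, and each had 1 probe set annotated to it alone, among 19935 genes with such a probe set and 28815 probe sets in all. The arrays were 3 labelled Nkx2.9 knockout (A, B and C) and 3 labelled wild type (A, B and C). The labels used here give genotype, stage and tissue, and name no allele, strain, sex or pooling of embryos, so p-values measure only the spread between these samples, which may be technical. The series was made to look for downstream effectors of Nkx2.9, a homeodomain factor of ventral progenitors, during spinal accessory motor neuron development. Wherever 3 values of a group are given, they are those of arrays A, B and C in that order.

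Proneural factors are basic helix-loop-helix (bHLH) transcription factors that drive dividing neural progenitors to leave the cell cycle and become neurons. They bind E-box DNA as dimers with E proteins such as Tcf12, and they switch on Notch ligands, which hold neighbouring cells back through Hes repressors. The neurogenins act first, and Neurod1, Neurod4 and the zinc-finger gene Insm1 come on in the cells that are about to differentiate or have just done so.

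Each deposited value is a log2 expression value counted from the probe set's own median over the 6 arrays. A value of 0 is therefore the middle of the 6 arrays and not the absence of a transcript, and levels of different genes could not be set side by side. Whether a gene stood above background could not be seen either. In a bulk sample, fewer cells of a type and less RNA per cell cannot be told apart.

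The targeted gene did not check the labels. Nkx2-9 stood at -0.07, 0.26 and 0.11 in the knockout-labelled arrays, against -0.21, 0.07 and -0.11 in the wild-type arrays, a difference of 0.18 (SE 0.11; exact two-sided permutation p = 0.2, where 0.1 is the smallest this design can give). Each knockout-labelled array was above the wild-type array of its letter. In a fit with the letter as a block, Nkx2-9 was at 0.183 (SE 0.045, limma unadjusted p = 0.012, adjusted p = 0.453). Where its probes lie relative to the deleted part was not known, so the arrays are called knockout-labelled. Knockout A, B and C stand for the arrays with those labels. Xist, the RNA of the inactive X chromosome, was at 4.56 and 4.91 on knockout B and C and between -0.25 and 0.11 on the other 4, and its part in the differences below was not tested beyond a fit with a term for it, in which Nkx2-9 was at 0.013.

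None of the 6 proneural genes passed the test across the whole table, and they fell into 2 classes by their spread. Neurog1, Neurog2 and Insm1 stayed within a range of 0.28, 0.17 and 0.21 over the 6 arrays, and their differences were 0.16, 0.06 and 0.10 on the log2 scale. Neurod1, Neurod4 and Neurog3 ranged over 1.38, 1.05 and 0.98, with residual SDs within groups of 0.43, 0.36 and 0.40. In limma with Benjamini-Hochberg adjustment, 0% of probe sets were called at an adjusted p under 0.05 (0 of 28815), and so were 0 of the 6 genes; 5.57% (1605) had an unadjusted p under 0.05, as did 1 of the 6, Neurog1. A test with unequal variances called 0 as well. Of the 6 genes 5 were higher in the knockout-labelled arrays, where 55% of all probe sets were, and their median difference was 0.13, against 0.01 over all probe sets. That median was 0.063 without knockout C and 0.063 without wild-type C.

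**Figure D1:**
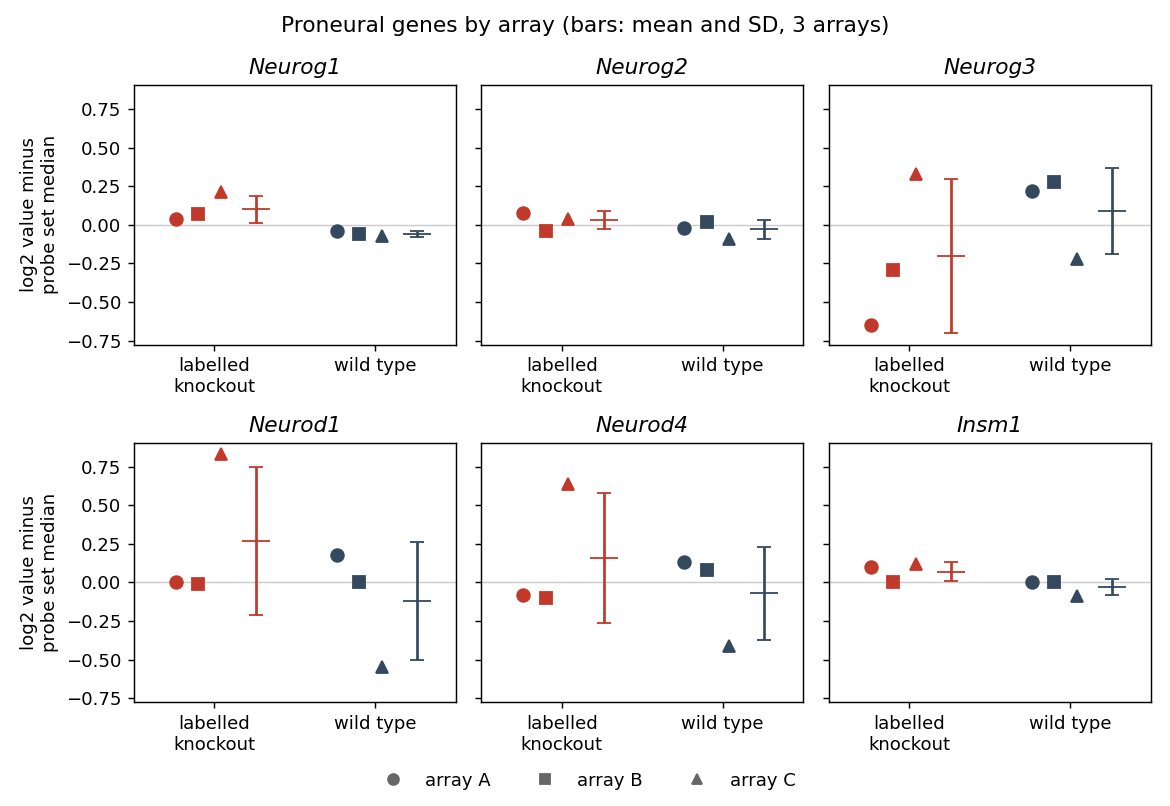
Value of each gene on each array (vertical axis, log2 value minus the probe set's median), knockout-labelled arrays left and wild type right, with circles, squares and triangles for arrays A, B and C and bars for the mean and SD of 3 arrays. The triangles of Neurod1 stand at 0.83 in knockout C and -0.55 in wild-type C, while Neurog2 stays between -0.09 and 0.08 on every array.

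Neurog1, a neuronal determination factor that starts neurogenesis in part of the cord and in sensory ganglia, was the one member whose groups did not overlap. It stood at 0.04, 0.07 and 0.21 in the knockout-labelled arrays, against -0.04, -0.06 and -0.07 in the wild-type arrays. All 3 knockout-labelled arrays were above all 3 wild-type arrays, with knockout C the highest. The groups did not overlap in 10.9% of complete probe sets, with the knockout-labelled arrays higher in 6.68% and lower in 4.25%, against 1 of the 6 genes here. The difference was 0.16 (SE 0.06, 95% interval 0.02 to 0.30, 1.12-fold; limma adjusted p = 0.812). The value was 0.108 without knockout C and 0.09 with a term for high Xist. The unadjusted p was under 0.05 in 9 of 15 alternatives, and above it with unequal variances, with the Xist term, without knockout C and without any one of the wild-type arrays.

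Neurog2, the neurogenin of motor neuron progenitors and of much of the ventral cord, had the narrowest range of the 6. Its values were 0.08, -0.04 and 0.04 in the knockout-labelled arrays, against -0.02, 0.02 and -0.09 in the wild-type arrays. The groups overlapped, and the range of 0.17 over all arrays was larger than that of 33% of complete probe sets. By spread within groups Insm1 was narrower: its residual SD was larger than in 28.5% of probe sets, and that of Neurog2 than in 32.1%. The difference was 0.06 (SE 0.05, 95% interval -0.07 to 0.19; limma adjusted p = 0.857). That interval holds no change, and reaches at most 0.19 in the upward direction.

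Neurog3, best known as the determination factor of pancreatic endocrine cells and in the embryonic cord a gene of the most ventral progenitors beside the floor plate, was the one member that was lower in the knockout-labelled arrays. It stood at -0.65, -0.29 and 0.33 in the knockout-labelled arrays, against 0.22, 0.28 and -0.22 in the wild-type arrays. Knockout A and B were the lowest of the 6, but knockout C was the highest, so the groups overlapped. The difference was -0.30 (SE 0.26, 95% interval -0.93 to 0.34; limma adjusted p = 0.845). It depended on single arrays: it was -0.074 without knockout A, -0.455 without wild-type C and -0.565 without knockout C (limma adjusted p = 0.965, 0.761 and 0.977, in that order). A term for high Xist gave -0.742 (limma adjusted p = 0.84).

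The ventral domain that expresses Neurog3 is also marked by Nkx2-2, a homeodomain factor of the progenitors, and by Sim1, a factor of the V3 interneurons born there. Nkx2-2 stood at -0.21, -0.08 and 0.08 in the knockout-labelled arrays, against 0.10, 0.11 and -0.16 in the wild-type arrays. Sim1 stood at -0.17, -0.21 and 0.17 in the knockout-labelled arrays, against 0.17, 0.85 and -0.35 in the wild-type arrays. Both had knockout A and B below wild-type A and B, with the C arrays the other way round, as Neurog3 did. Their differences were -0.09 (SE 0.10) and -0.29 (SE 0.29), and neither passed in limma. Sim1 was named after its values were seen. Most of the floor plate and V3 list went the other way: 7 of its 11 genes were higher in the knockout-labelled arrays. The list had a median of 0.14, with Foxa1 at 0.18, Foxa2 at 0.22 and Spon1 at 0.22. The targeted gene Nkx2-9, also of that list, did not have the order of Neurog3. It stood at -0.07 and 0.26 on knockout A and B, against -0.21 and 0.07 on wild-type A and B.

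Neurod1, a differentiation factor that acts below the neurogenins, had the largest difference and the widest spread of the 6. Its values were 0.00, -0.01 and 0.83 in the knockout-labelled arrays, against 0.18, 0.00 and -0.55 in the wild-type arrays. Knockout C was far above the rest and wild-type C far below, with the other 4 arrays between -0.01 and 0.18. The highest array was 2.6-fold over the lowest, a range larger than in 99.5% of complete probe sets. The difference was 0.40 (SE 0.28, 95% interval -0.29 to 1.08, 1.31-fold; limma adjusted p = 0.819).

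Neurod4, a relative of Neurod1 that acts with Neurog2 in motor neuron differentiation, showed the same order of arrays at the extremes. It stood at -0.08, -0.10 and 0.64 in the knockout-labelled arrays, against 0.13, 0.08 and -0.41 in the wild-type arrays. Knockout C was again the highest and wild-type C the lowest, 2.07-fold apart. The difference was 0.22 (SE 0.24, 95% interval -0.35 to 0.80; limma adjusted p = 0.878), and it turned to -0.021 without knockout C and to -0.011 with a term for high Xist. Neurod1 was at 0.117 without knockout C, 0.182 without wild-type C and 0.121 once high Xist was a term. With both C arrays left out, a choice made after the values were seen, Neurod1 was at -0.096 and Neurod4 at -0.191, both the other way round, while Neurog3 was at -0.724 and Neurog1 at 0.101 (limma adjusted p = 0.866, 0.833, 0.833 and 0.833, in that order).

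Insm1 is a zinc-finger factor switched on in progenitors that are about to divide for the last time and in newly born neurons. Insm1 had a narrow range over the arrays, 0.21, as Neurog2 had (0.17). Its highest array was knockout C and its lowest wild-type C, as for Neurod1. Its values were 0.10, 0.00 and 0.12 in the knockout-labelled arrays, against 0.00, 0.00 and -0.09 in the wild-type arrays. Knockout A and C were above the other arrays, knockout B lay among the wild-type arrays, and the difference was 0.10 (SE 0.05, 95% interval -0.02 to 0.23; limma adjusted p = 0.812).

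**Figure D2:**
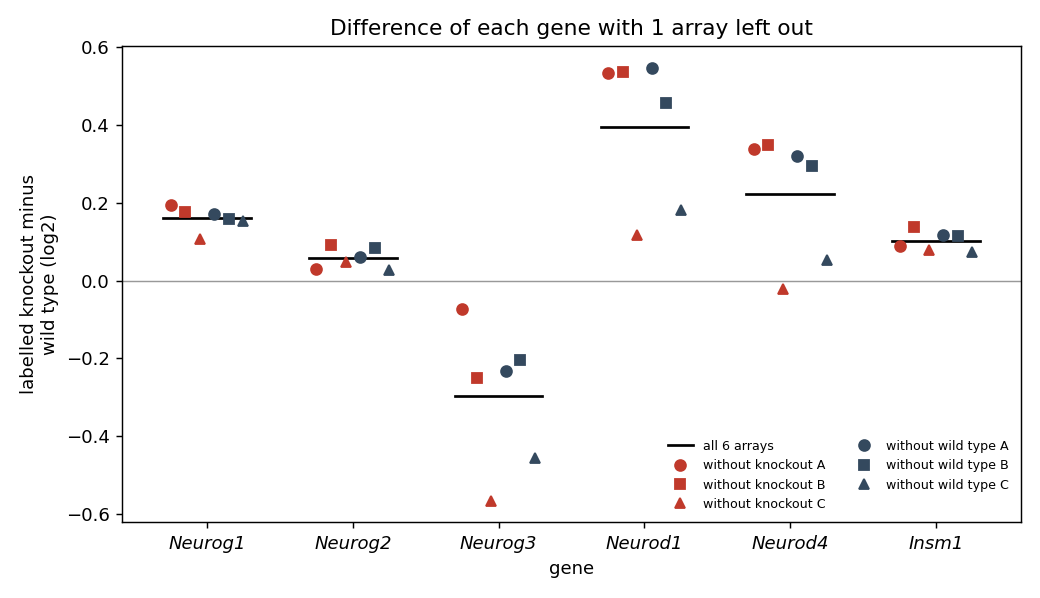
Difference of each gene, knockout-labelled arrays minus wild type (vertical axis, log2), with all 6 arrays (black line) and with 1 array left out (red for a knockout-labelled array, dark blue for wild type; circle, square and triangle for A, B and C). Neurod4 lies between -0.021 and 0.349 and Neurog3 between -0.565 and -0.074, while Neurog1 lies between 0.108 and 0.195.

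The likeness of the patterns was measured as the root mean square difference between 2 centred profiles over the 6 arrays, of each member and 216 other genes of the lists. Neurod1 and Neurod4 were each other's nearest gene, at 0.11, where their own root mean square values were 0.41 and 0.32. Neurog2 and Insm1 were each other's nearest too, at 0.04, but both profiles were nearly flat (0.06 and 0.07), so flat genes are all near them. The gene nearest to Neurog1 was Dll3, a Notch ligand gene of committed cells, at 0.04, followed by Nkx6-2 and Tbx18, both at 0.05. Neurog1 had a root mean square value of only 0.10, and the nearly flat Insm1 was at 0.06 from it. For Neurog3 the nearest gene was Nkx2-2, at 0.24, then Isl1 at 0.26 and Chat at 0.27, none of them close beside its own 0.36. Scg2, a granule protein gene of neurons, came next after the Neurod pair, at 0.23 from Neurod1 and 0.18 from Neurod4, with Tek at 0.23 from Neurod1 and Slit2 at 0.18 from Neurod4. Nefm and Lmx1b were next to Neurog2, and Wnt1 and Gata2 next to Insm1, at 0.05 or 0.06. These are descriptions over 6 arrays.

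The 2 C arrays held the extremes for 4 of the 6 genes (Neurog1, Neurod1, Neurod4 and Insm1), with knockout C the highest and wild-type C the lowest, a pattern found in 5.02% of complete probe sets. Knockout C also had the highest median of the mesenchyme and sclerotome list, at 0.42, against -0.01 and -0.01 on knockout A and B and -0.06 to 0.11 on the wild-type arrays. Single genes of that list stood far higher on knockout C: the matrix gene Lum at 3.31, the transcription factor genes Foxc2 at 3.01, Twist1 at 2.32 and Prrx1 at 1.70, and the receptor gene Pdgfra at 1.74. Among the wild-type arrays, wild-type B was the highest for these 5, at 1.66 for Lum and 1.21 for Foxc2. Other genes of the list were not high on knockout C, such as Dcn at -0.24 and Col1a1 at 0.03. Dcn had the largest difference of the list, 0.84, with 0.68 on knockout B and -2.02 on wild-type B. The 17 mesenchyme genes all had positive differences, with 0 of them at an unadjusted p under 0.05 in limma; their median difference was 0.26, and -0.041 without knockout C. The 2 of lowest p, Prrx2 at 0.10 (SE 0.06) and Tbx18 at 0.09 (SE 0.06), were only at 0.01 and 0.17 on knockout C. Blood and vessel genes had a median of 0.13 on knockout C and between -0.13 and 0.06 elsewhere. Among vessel genes, Cdh5 was at 1.37, Emcn at 1.34, Kdr at 1.08 and Tek at 0.98 on knockout C. Other vessel genes stood lower on that array, with Pecam1 at 0.54, Tie1 at 0.25 and Cldn5 at 0.05. These mesenchyme and vessel genes were named after their values were seen. The blood genes Klf1 and Hbb-bh1 had differences of 0.37 (SE 0.21) and 0.34 (SE 0.22), but both were highest on wild-type C, at 0.15 and 0.20, and low on wild-type A and B. The dorsal cord list stood at -0.24 on knockout C, and at -0.02 and 0.00 on knockout A and B. On the wild-type arrays its medians were -0.01 to 0.05, but single dorsal genes varied there too. Msx3 was at -1.61 on knockout C, -1.06 on wild-type B and 0.63 on wild-type C. On the same arrays Pax3 was at -0.82, -0.94 and 0.32, and Olig3 at -0.59, 0.48 and 0.02. These dorsal genes were named after their values were seen. On wild-type C the ventral and intermediate cord list was at its lowest, -0.16, with -0.01 to 0.05 on the other arrays. The part of these lists in the values of Neurod1 and Neurod4 was not tested. Because all values are centred, no marker could be called absent.

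Dorsal root ganglia lie beside the cord and also express neurogenins and Neurod1. The 13 measured ganglion genes had medians between -0.02 and 0.08 on the 6 arrays. The median was 0.02 on knockout C and -0.01 on wild-type C, where Neurod1 was at its extremes. The part of ganglia in the values of Neurod1 was not tested, and a list median cannot decide it, since single genes went both ways. Single ganglion genes stood between -0.90 (Ntrk2) and 0.33 (Cdh19) on knockout C and between -0.46 (Ret) and 0.11 (Pou4f1) on wild-type C, the 4 genes named as the ends of those ranges. Runx3, a factor of sensory neuron subtypes, was at 0.18 (SE 0.07, limma adjusted p = 0.812). The 8 measured genes of endocrine cells outside the cord, where Neurog3, Neurod1 and Insm1 also act, had a median difference of -0.03, with Nkx6-3 at 0.18 (SE 0.08) and Pdx1 at -0.06 (SE 0.04), and 0 of 8 had an unadjusted p under 0.05; that median turned to 0.034 without knockout A and 0.004 without wild-type C.

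**Figure D3:**
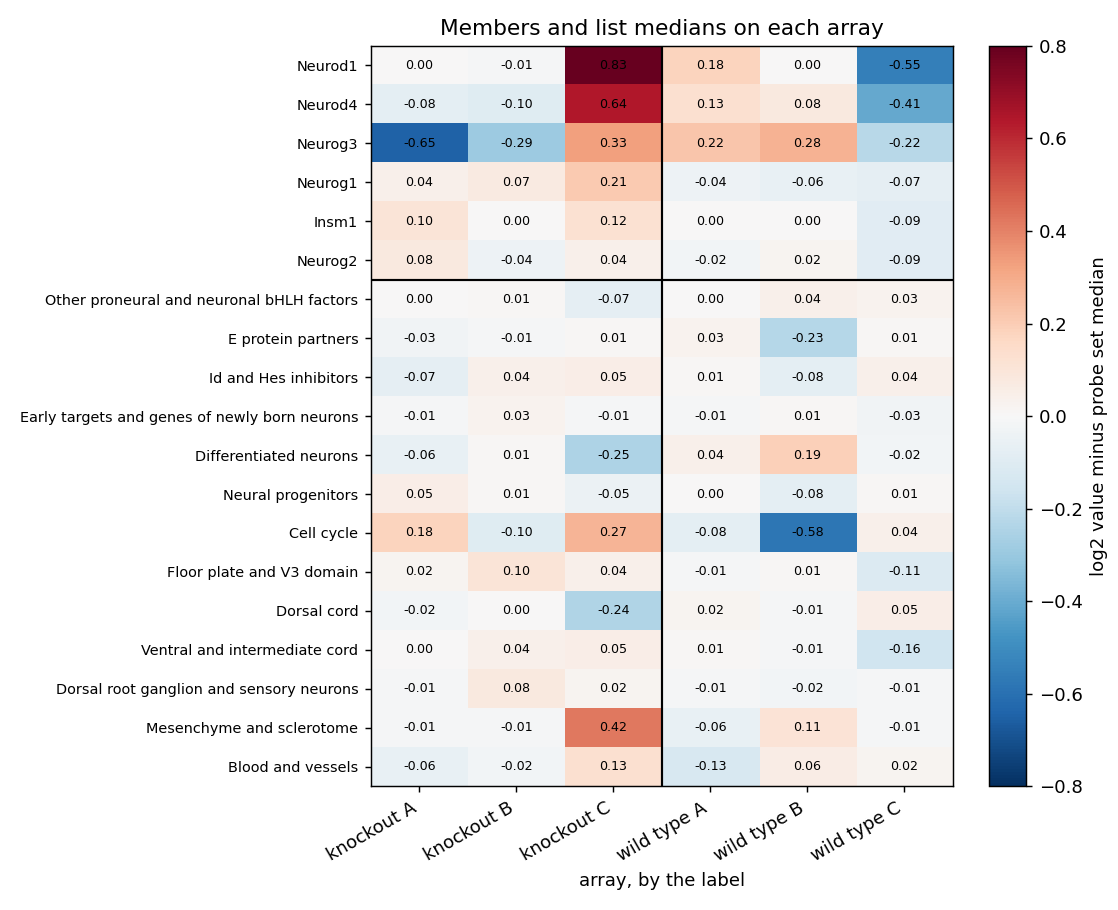
Values of the 6 genes (top rows) and medians of the other gene lists (bottom rows) on each array, in log2 units relative to each probe set's median, with the 3 knockout-labelled arrays left of the 3 wild-type arrays. Knockout C has the highest values of Neurod1 (0.83), Neurod4 (0.64) and the mesenchyme list (0.42), and wild-type C the lowest of Neurod1 (-0.55) and Neurod4 (-0.41).

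Neurod1 and Neurod4 were each other's nearest profile and both ranged widely, so their promoters are shown for the E-boxes that bHLH dimers bind. The windows are the RefSeq sequences (GRCm38.p6) of 250 bases before to 50 after the start, on the minus strand at chr2:79456587-79456886 for Neurod1 and chr10:130280089-130280388 for the second of 2 Neurod4 starts, with every match to CANNTG in capitals.
Neurod1: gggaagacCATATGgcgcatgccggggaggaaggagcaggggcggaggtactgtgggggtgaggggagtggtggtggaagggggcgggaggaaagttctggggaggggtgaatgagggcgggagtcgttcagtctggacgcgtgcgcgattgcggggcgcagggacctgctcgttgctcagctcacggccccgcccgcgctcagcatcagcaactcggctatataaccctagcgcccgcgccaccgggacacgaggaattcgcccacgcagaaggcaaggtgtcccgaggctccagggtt
Neurod4: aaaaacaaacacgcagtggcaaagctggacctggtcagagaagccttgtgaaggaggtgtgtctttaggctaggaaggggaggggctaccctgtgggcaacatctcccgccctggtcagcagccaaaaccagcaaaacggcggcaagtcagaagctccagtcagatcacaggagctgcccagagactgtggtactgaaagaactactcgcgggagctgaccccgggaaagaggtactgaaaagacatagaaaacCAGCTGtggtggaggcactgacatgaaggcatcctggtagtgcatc
Each window held 1 E-box, CATATG in Neurod1 and CAGCTG in Neurod4, so the letters in the core differed. The window of the first Neurod4 start, which overlaps this one, held none. Of 32851 promoters of 300 bases, 72.3% held a CANNTG and 16.3% a CAGCTG, which is one form of it.

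The table of promoters had windows for 5 of the 6 genes, all but Insm1. The windows of Neurog1 and Neurog3 held 1 E-box each, with CAGCTG as the form in Neurog3, and that of Neurog2 held none. CAGATG or its other strand, a form that neurogenin and NeuroD dimers are known to bind, was in none of the 6 windows and in 17.2% of all promoters. CACNAG, the N-box bound by Hes-type repressors, was found on either strand in the windows of Neurog2, Neurod1 and Neurod4 and in 42.5% of all promoters. These are matches of letters in a short window, and none is shown to be a binding site.

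Early targets of proneural factors and genes of newly born neurons were looked at next, since the members act through them. Among the 32 measured genes, 19 were higher and 13 lower with the knockout label, and the median was 0.03, and 0.015 without knockout B. An unadjusted p under 0.05 was reached by 4 higher genes, where 3.07% of all probe sets did, and by 1 lower gene, where 2.5% did. None passed adjusted over all probe sets in limma. The Notch ligand gene Dll1, which neurogenins induce, stood at 0.03, 0.05 and 0.07 in the knockout-labelled arrays, against -0.03, -0.13 and -0.05 in the wild-type arrays. Dll3 stood at 0.08, 0.03 and 0.25 in the knockout-labelled arrays, against -0.04, -0.09 and -0.03 in the wild-type arrays. In both the groups did not overlap, as in 5 of the 32 genes and in 10.9% of complete probe sets (6.68% with the knockout-labelled arrays higher). The differences of Dll1 and Dll3 were 0.12 (SE 0.04) and 0.18 (SE 0.06), with adjusted p = 0.812 in limma for each.

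Sstr2, a somatostatin receptor gene, had the lowest p of that list. It stood at 0.24, 0.05 and 0.08 in the knockout-labelled arrays, against -0.05, -0.34 and -0.39 in the wild-type arrays, a difference of 0.38 (SE 0.10, limma adjusted p = 0.812). Ebf2, a helix-loop-helix factor of postmitotic neurons, was at 0.36 (SE 0.13), with knockout A the highest at 0.48. The lower gene was Tagln3, a neuronal actin-associated protein gene, at -0.38 (SE 0.16), named after its value was seen; it was lowest on knockout C, at -0.63. Hes6, a bHLH gene of committed cells that opposes Hes1, was at 0.02 (SE 0.07), and Nhlh1, a bHLH gene of newly born neurons, at -0.02 (SE 0.09).

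The partners and opponents of the proneural factors had no gene past the adjusted threshold either. The E protein genes Tcf3, Tcf4 and Tcf12 were at 0.04, -0.03 and 0.03, with 95% intervals that all lay between -0.22 and 0.28. Of 11 Id and Hes inhibitors 6 were higher and 5 lower, with a median of 0.04 that turned to -0.087 without wild-type B and to -0.104 with the Xist term, and 0 had an unadjusted p under 0.05. Hes5, the Notch-induced repressor that blocks proneural genes, was at -0.01 (SE 0.06, 95% interval -0.16 to 0.14), and Id2, which binds E proteins, at -0.05 (SE 0.08). Hey1 was at 0.13 (SE 0.06). Heyl was at 0.36 (SE 0.23), with 0.91 on knockout C against 0.03 and 0.04 on knockout A and B.

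Of 11 measured other proneural and neuronal bHLH genes 3 were higher and 8 lower, with a median of -0.02, and -0.06 without knockout B. Ferd3l, a bHLH gene of the floor plate, was at 0.24 (SE 0.09, limma adjusted p = 0.812) and was the one with an unadjusted p under 0.05. Of the dorsal bHLH genes Ptf1a was at -0.51 (SE 0.28), Olig3 at -0.42 (SE 0.19) and Atoh1 at 0.15 (SE 0.22), all 3 named after their values were seen.

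**Figure D4:**
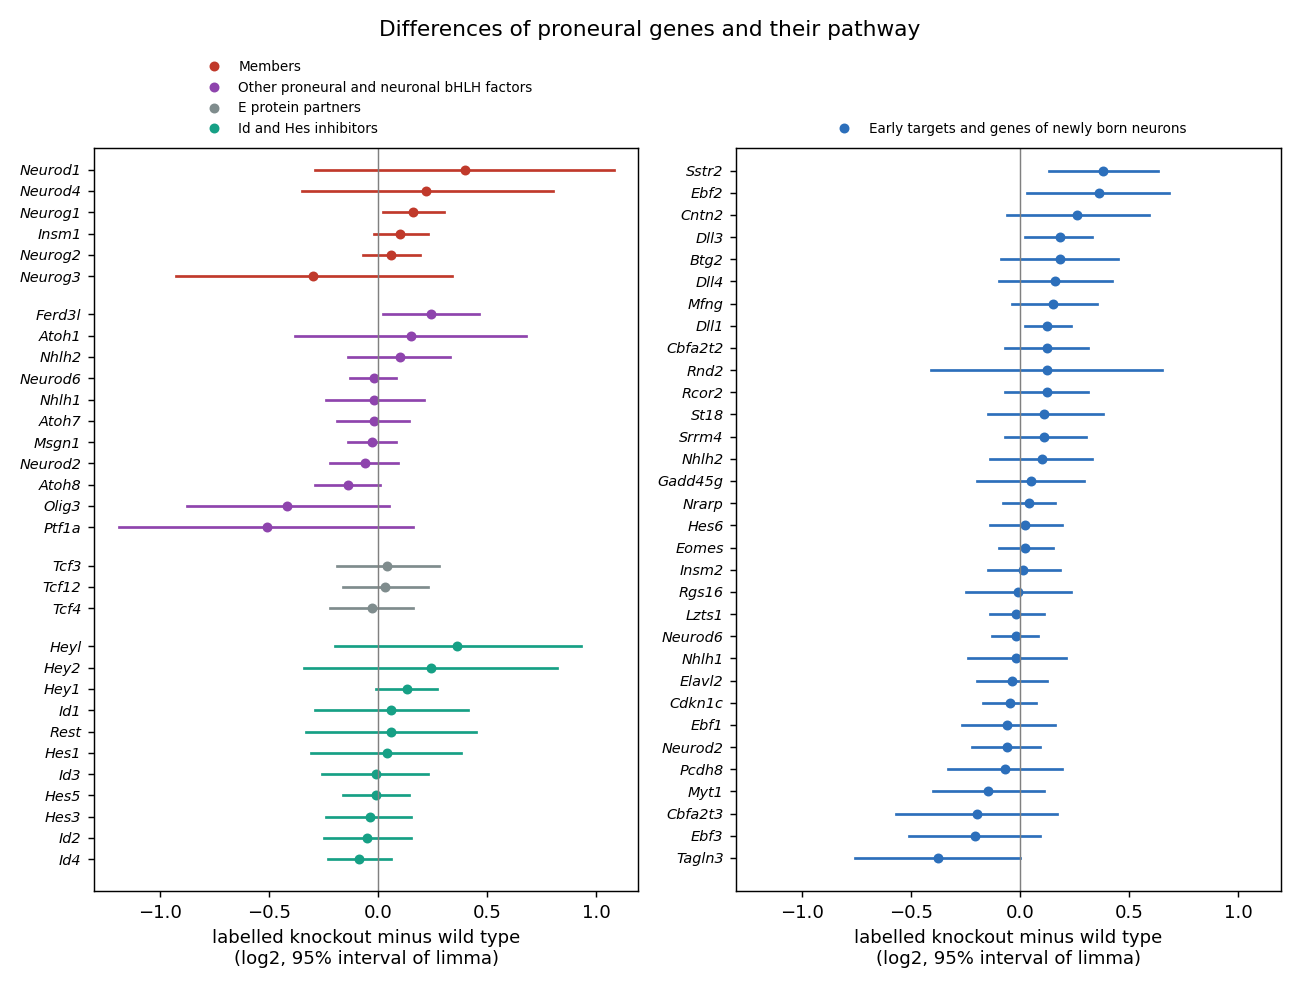
Difference of each gene, knockout-labelled arrays minus wild type (horizontal axis, log2), with limma's 95% interval, for the 6 members and the bHLH, E protein, Id and Hes lists (left) and the early targets (right). Intervals of Neurod1 (-0.29 to 1.08) and Neurog3 (-0.93 to 0.34) are wide, and those of Neurog2 and Insm1 are narrow.

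The stages before and after the proneural step are given for comparison. The 22 measured cell cycle genes had positive differences without exception (median 0.33; Mcm6 at 0.39, SE 0.17, and Cenpe at 0.44, SE 0.20), with 0 at an unadjusted p under 0.05, and the list stood at -0.58 on wild-type B and at 0.125 without that array. Of 18 neural progenitor genes 10 were higher, with a median of 0.02 that turned to between -0.013 and -0.004 when knockout A, knockout B or wild-type B was left out. Prom1 at 0.36 (SE 0.13) and Notch1 at 0.34 (SE 0.13) had an unadjusted p under 0.05, as 3.07% of all probe sets did upward. Of 20 genes of differentiated neurons 18 were lower, with a median of -0.16, including Elavl3 at -0.13 (SE 0.04), Syt1 at -0.44 (SE 0.17) and Mapt at -0.39 (SE 0.15), the 3 with an unadjusted p under 0.05, as 2.5% of all probe sets did downward. The neuronal list was at -0.25 on knockout C, where Neurod1 and Neurod4 were highest, and at -0.02 on wild-type C, where they were lowest.

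Progenitor domains that use the neurogenins are set against all probe sets, of which 55% were higher, 3.07% higher with an unadjusted p under 0.05 and 2.5% lower with one. Of 21 ventral and intermediate cord genes 14 were higher, 7 with an unadjusted p under 0.05 and all 7 higher, among them Irx3 at 0.30 (SE 0.09), Gata2 at 0.16 (SE 0.05), Evx2 at 0.21 (SE 0.07) and Foxn4 at 0.17 (SE 0.06); the median of the list was 0.09, between 0.043 (without wild-type C) and 0.151 with 1 array left out. Of 11 floor plate and V3 genes 7 were higher, and Foxa1 (0.18, SE 0.05), Foxa2 (0.22, SE 0.07) and Spon1 (0.22, SE 0.09) had an unadjusted p under 0.05; the median of 0.14 was 0.022 without wild-type C. Of 17 dorsal cord genes 13 were lower, including Barhl2 at -0.57 (SE 0.11) and Barhl1 at -0.27 (SE 0.09); the median of -0.05 was -0.001 without knockout C and turned to 0.009 without wild-type C and 0.061 without both C arrays. None of these passed adjusted over all probe sets.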

How the data were processed

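RNA of 6 cervical cord samples was amplified into sense-strand cDNA and biotin-labelled, per the labels' protocols. The authors ran RMA to obtain the deposited log2 values, per the submitters' processing notes; its version and settings are not given in the sources used here, and the log base was taken as 2, the base RMA uses. Every complete probe set had a median of 0 within 5.0e-07, so the table had been centred per probe set. Of 28815 probe sets 24 had none for wild-type C, which left 5 arrays for their fit; none belonged to the 6 genes.

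Symbols came from the platform annotation: 21780 probe sets had 1, 1605 several and 5430 none. Where a gene had several probe sets, the one with most accessions was used. Of the 21780, 21689 matched a RefSeq gene table (GRCm38.p6), which changed 0 symbols. Genotype was the single term of a limma 3.58.1 fit (R 4.3.3), with Benjamini-Hochberg adjustment over all probe sets, tested on simulated data. Gene lists are described by counts and medians.

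Members, lists and alternatives were chosen with earlier results of these data known. The genes named were the 6 members; in each list up to 4 genes with unadjusted p under 0.05, or else the 2 of lowest p; genes named for their role (Dll1, Dll3, Hes5, Hes6, Nhlh1, Tcf12 and Id2); and, per member, the 3 nearest profiles. Others, named after their values were seen or as the ends of a range, are said to be so in the text; Nkx2-9 and Xist were checks, and Tcf4 completes the E proteins. Figures used matplotlib 3.10.9. The number of arrays limits the precision.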

Additional observations from a re-analysis of the deposited data

How the results depend on the processing

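Neurog1, Neurog2, Neurog3, Neurod1 and Insm1 kept their direction in all 15 alternatives other than the one added. In some of these alternatives the direction was fixed in advance. A replicate block, a robust variance prior and unequal variances left each difference as it was. Fits by gene did too, since each member had 1 probe set. No member passed the adjusted threshold in any of the 15 (lowest limma adjusted p = 0.478, for Neurog1). Leaving out 1 array gave -0.021 to 0.349 for Neurod4, 0.117 to 0.547 for Neurod1, -0.565 to -0.074 for Neurog3, 0.108 to 0.195 for Neurog1, 0.026 to 0.092 for Neurog2, 0.074 to 0.138 for Insm1, 0.063 to 0.158 for the members' median, and -0.087 to 0.085, -0.041 to 0.403, 0.013 to 0.225 and 0.022 to 0.159 for the medians of the Id and Hes, mesenchyme, blood and vessel, and floor plate and V3 lists. With a term for high Xist, Neurod4 was at -0.011, Neurog3 at -0.742, Neurod1 at 0.121, Neurog1 at 0.09, Neurog2 at 0.109, Insm1 at 0.126 and Nkx2-9 at 0.013, and list medians at -0.104 (Id and Hes), 0.004 (early targets), 0.025 (floor plate and V3), -0.04 (mesenchyme), -0.044 (blood and vessels), -0.125 (endocrine), 0.061 (progenitors), -0.047 (other bHLH) and -0.028 (E proteins). Without both C arrays, added after the data were seen, Neurod1 was at -0.096, Neurod4 at -0.191 and Neurog3 at -0.724 (limma unadjusted p = 0.0198 for Neurod4 and 0.00376 for Neurog3, and 0.0253 for Neurog3 without knockout C alone), the members' median at -0.04, and those of progenitors, mesenchyme, and blood and vessels at 0.067, -0.035 and -0.025.

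Probe sets at unadjusted p under 0.05 in limma numbered 1605, 2552 with the letter as a replicate block, and 977 (without wild-type B) to 2871 (without knockout B) with 1 array left out, against 928 with unequal variances. The adjusted count ran from 0 to 5 with 1 array left out. Without knockout A the 5 were Xist at 4.94, the Y chromosome genes Eif2s3y at -3.22, Kdm5d at -3.18 and Uty at -2.7, and 1 unnamed probe set at -2.75. That fit sets knockout B and C, the arrays with high Xist, against the wild-type arrays, where Xist was low. The knockout label, high Xist and low Y chromosome genes, and so the sex of the embryos, cannot be told apart in it. The letters were not taken as pairs, because the labels do not say that they pair the arrays. Deviations of same-letter arrays correlated at 0.165, 0.216 and 0.016 for A, B and C. Those of arrays with other letters correlated between -0.187 and 0.044, so whether the letters pair the arrays was left undecided. With the replicate block Neurog1 was at 0.16 (limma adjusted p = 0.558). The cause of these shifts was not tested. Centred values cannot tell whether a signal lies above background.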
